A study of Mus musculus with 6 samples.

Results

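The protein tyrosine phosphatases, with the kinase and the anchor that hold Src family kinases inactive, were described across 6 mouse liver arrays. Members were all genes whose mouse symbol starts with Ptpn and a digit or with Ptpr and a letter or digit, plus Csk and Pag1. The arrays' probes carry transcript accessions, and a RefSeq match of these gave 31 member genes with 32 probes, of 13971 named genes. They were 13 genes named Ptpn, 16 named Ptpr, Csk and Pag1. The table held 42 fitting symbols. The other 11, which were Ptpn3, Ptpn11, Ptpn14, Ptpn23, Ptprd, Ptpre, Ptprh, Ptprq, Ptprv, Ptprz1 and the non-coding Ptprtos, had no matched probe and were not analysed here.

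Wild-type C57BL/6 mice aged 14 months gave 3 arrays (replicates 1, 2 and 4). Mice of the same strain and age that carry human c-Src behind the mouse metallothionein promoter gave 3 arrays (replicates 1, 3 and 4). The RNA came from whole liver, so signals mix all its cell types, and the labels give neither the sex of a mouse nor whether the tissue held tumour. The series' design text gives the aim as finding genes that act after Src in liver carcinogenesis, since the line is prone to liver tumours.

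Src family kinases are held closed by a phosphate on a tyrosine in their tail. Csk adds that phosphate, and Pag1, a membrane adaptor, brings Csk to the membrane. Phosphatases act on both sides of this switch: Ptpra and the leukocyte receptor Ptprc are known to remove the tail phosphate and so open the kinase, while others remove the activating phosphate or dephosphorylate the substrates. In liver the family is best known through Ptpn1, which dephosphorylates the insulin receptor. The set is therefore not made of brakes alone.

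Array quality and the transgene frame every value. The median mouse probe signal was 53.8 to 93.4 on wild-type arrays and 94.8 to 117 on transgenic arrays, so values below are log2 signals after quantile normalization unless a signal is named. Src read 6.65, 7.21 and 6.62 in wild-type and 9.67, 8.48 and 7.71 in transgenic livers, so the groups did not overlap. It missed limma's threshold (log2 change 1.79 ± 0.51 SE, adjusted p = 0.691), and whether the mouse probe reads the human transcript is unknown. All 7 tested hepatocyte markers were above background on every array. Transgenic replicate 4 stood apart in 3 Y-linked genes, Uty, Eif2s3y and Ddx3y, which were above background on the other 5 arrays and under it there. Ddx3y, for example, read 2.74 there against 6.75 to 7.73 elsewhere. The probe of Kdm5d, the other Y-linked gene tested, did not follow them and was above background on all 6 arrays, at 9.03 there against 8.32 to 8.74 elsewhere. The metallothionein genes Mt1 and Mt2, whose family's promoter drives the transgene, had log2 changes of 3.71 ± 0.53 (SE) and 4.88 ± 0.44 with groups that did not overlap, and missed the threshold too (adjusted p = 0.691 and 0.346).

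The promoters of Csk, Ptpru and Ptprc are shown because they belong to the kinase that closes Src, a member above background on all transgenic arrays and on no wild-type array, and the leukocyte member. The windows run from 250 bases before to 50 bases after a start site, from RefSeq on GRCm38.p6, with every CpG in capitals. They are Csk at chr9:57645604-57645903 (minus strand), Ptpru at chr4:131838229-131838528 (minus strand) and Ptprc at chr1:138175077-138175376 (minus strand).
Csk: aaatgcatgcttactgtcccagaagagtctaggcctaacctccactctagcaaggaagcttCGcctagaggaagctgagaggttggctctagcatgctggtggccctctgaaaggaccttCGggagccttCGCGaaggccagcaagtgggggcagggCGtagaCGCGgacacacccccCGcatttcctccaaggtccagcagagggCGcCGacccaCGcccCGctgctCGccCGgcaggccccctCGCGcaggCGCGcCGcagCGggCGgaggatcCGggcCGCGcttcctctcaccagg
Ptpru: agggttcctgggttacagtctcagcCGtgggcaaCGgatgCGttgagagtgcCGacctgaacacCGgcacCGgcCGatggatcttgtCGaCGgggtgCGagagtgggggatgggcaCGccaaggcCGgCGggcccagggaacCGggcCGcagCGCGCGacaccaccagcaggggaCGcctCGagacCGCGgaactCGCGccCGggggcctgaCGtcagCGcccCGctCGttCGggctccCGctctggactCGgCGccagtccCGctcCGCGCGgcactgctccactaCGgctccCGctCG
Ptprc: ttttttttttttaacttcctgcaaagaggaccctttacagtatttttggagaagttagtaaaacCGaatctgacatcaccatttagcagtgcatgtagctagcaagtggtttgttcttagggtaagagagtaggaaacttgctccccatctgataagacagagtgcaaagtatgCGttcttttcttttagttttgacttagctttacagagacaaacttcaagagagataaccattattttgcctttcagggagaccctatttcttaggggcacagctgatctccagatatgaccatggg

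These windows held 24, 40 and 2 CpGs. Csk and Ptprc each had another window, not shown, with 9 and 4 CpGs. The table had 39 windows for 26 members, with a median of 18 CpGs, against a median of 7 over all 32851 windows. Some windows of a gene overlap, as both of Ptprc do. Among the members expressed mainly in leukocytes (Ptprc, Ptpn6, Ptpn7 and Ptpn22) the 7 windows held 2 to 10 CpGs. The 32 windows of the other 22 members held 5 to 47. The GC box letters GGGCGG, on either strand, were in 21 of the 39 member windows (53.8%) and in 35.7% of all windows. TTCNNNGAA, the palindrome read by STAT factors, was in 2 member windows (5.13%), those of Ptpn22 and Ptprj, against 8.30% of all. TGANTCA, the AP-1 letters, was in 0 of 39 against 7.81%. TGCGCNC, a core form of the metal response element, was in 11 (28.2%) against 15.4%. The GC box and the metal response letters are both rich in C and G, as these windows are, and a match says only that the letters are present.

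Across the members no difference between the livers passed limma's test (adjusted p 0.691 to 0.995), where 0.00% of all 34175 features passed. At an unadjusted p under 0.05 there were 2 of 31 members, where the background was 7.09%. Both of these, Ptpn13 and Ptpru, were higher, where the background was 4.37%. On the lower side there were 0, where the background was 2.72%. The median log2 change of the 31 was -0.015, and it was 0.016 over all features. There were 15 positive and 16 negative values, and 51.7% of all features were positive. A log2 change over 1 either way was found for Ptpn13 and Ptprf, 6.45% of the members against 8.61% of all features. Ptpn13 was above background on no array, so its fitted value has no measured size. Among the 17 members above background on all 6 arrays the values ran from -1.01 for Ptprf to 0.43 for Ptprn2. With members above it on at least 1 array the upper end was 0.72 for Ptpn4, which was above background on transgenic replicate 1 alone.

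The groups did not overlap for Ptpn13 and Ptpru on the higher side, 6.45% of the members where the background was 10.1%. On the lower side this held for Ptprg, 3.23% against a background of 5.90%. Together these were 9.68% of the members against 16.0% of all features. Counted array by array, 15 members lay above their wild-type mean on transgenic replicate 1, 10 on replicate 3 and 16 on replicate 4. Over all features these shares were 57.2%, 46.8% and 48.5%. With 3 arrays against 3, an exact two-sided permutation test of a single gene cannot give a p below 0.1.

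**Figure D1:**
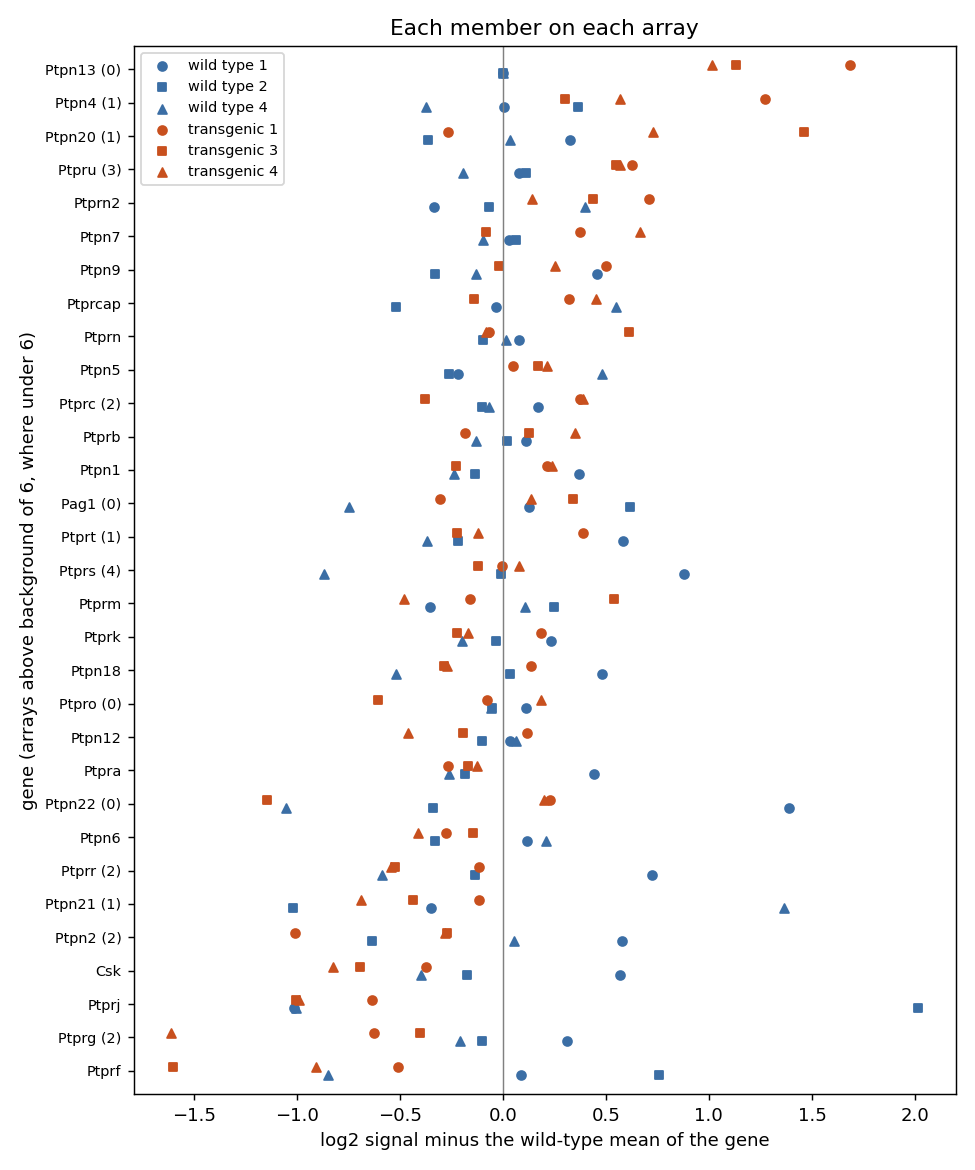
Log2 signal of each of the 31 members on each array, after subtracting the gene's wild-type mean (horizontal axis), with genes ordered by their log2 change. Blue points are the 3 wild-type and orange points the 3 transgenic arrays, and a number after a symbol is how many arrays were above background where that is under 6. The colours mix in almost every row, and Ptprj has a single blue point far to the right.

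Detection limits what can be said of the family. A probe counted as above background when its signal passed a threshold set by bacterial control spots, 33.0 to 50.6 depending on the array. By this measure 17 of 31 members were above background on all 6 arrays (54.8%, against 56.3% of all features). Pag1, Ptpn13, Ptpn22 and Ptpro were above it on no array (12.9% against 19.4%). The other 10 were above it on some arrays. Detection was not even between the groups: 62.6% to 69.0% of probes were above background on wild-type arrays and 68.8% to 71.7% on transgenic arrays. The lowest normalized value above background was 5.32 to 5.71 on wild-type and 5.15 to 5.33 on transgenic arrays. Ptprs, for example, was under background at 5.57 on wild-type replicate 2 and over it at 5.46 on transgenic replicate 3. Where just 1 group had no array above background, a fold is given as a lower bound between the group means, without their spread, if one above 1-fold could be set. None could be set for Ptpn4, Ptpn20, Ptpn21, Ptprc and Ptprt, so fitted log2 changes given for these do not measure a size.

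Csk, the kinase that closes Src, had a lower mean in transgenic livers without passing the test. It read 7.71, 6.97 and 6.74 in wild-type and 6.77, 6.45 and 6.32 in transgenic livers, above background on all 6 arrays. The groups met at wild-type replicate 4 and transgenic replicate 1, which were nearly equal. The log2 change was -0.63 ± 0.31 (SE), with a 95% interval of -1.38 to 0.12 (limma adjusted p = 0.691). Its deposited signals were nearly level, at 127, 108 and 113 against 117, 110 and 105, before the brighter transgenic arrays were scaled to the others. Without wild-type replicate 1 the log2 change was -0.35, and without wild-type replicate 4 it was -0.83 with an unadjusted p under 0.05.

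Pag1 could not be measured. Its signals were 8.56, 12.8 and 4.04 in wild-type and 7.36, 12.3 and 10.6 in transgenic livers, all under the thresholds.

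Among the phosphatases that act on the tail of Src family kinases, the values lay close together. Ptpra, expressed in many tissues, read 6.62, 5.99 and 5.91 in wild-type and 5.91, 6.00 and 6.05 in transgenic livers. The transgenic values of Ptpra sat at the low end of the wild-type range. The log2 change was -0.19 ± 0.25 (SE), with a 95% interval of -0.79 to 0.41, which leaves room for a fold difference either way. Ptpn1, the insulin receptor phosphatase, read 7.79, 7.28 and 7.18 against 7.63, 7.19 and 7.65, and the groups interleaved. Its log2 change was 0.077 ± 0.26 (SE), with an interval of -0.55 to 0.70.

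Ptprc, which encodes CD45 on all nucleated blood cells, was near the limit of detection. It read 5.32, 5.05 and 5.08 in wild-type and 5.53, 4.78 and 5.54 in transgenic livers, above background on transgenic replicates 1 and 4 and on no wild-type array. The transgenic arrays were both the highest and the lowest, and no lower bound above 1-fold could be set. In whole liver, fewer cells of a type and less RNA per cell cannot be told apart.

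The other members of leukocytes did not move together. Ptpn6, which encodes the inhibitory phosphatase SHP-1, read 7.37, 6.92 and 7.46 against 6.97, 7.10 and 6.84, a log2 change of -0.28 ± 0.22 (SE). Ptpn7, a phosphatase of MAP kinases in lymphocytes, read 7.76, 7.79 and 7.63 against 8.10, 7.65 and 8.40, a change of 0.32 ± 0.25. Transgenic replicates 1 and 4 were above all wild-type arrays for Ptpn7, and replicate 3 was not. Ptprcap, the CD45-associated protein and itself no phosphatase, read 8.54, 8.05 and 9.12 against 8.89, 8.43 and 9.02, so the groups overlapped throughout. Ptpn22, a partner of Csk in T cells, was above background on no array.

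Of the 19 tested leukocyte markers, 0 were higher and 2 were lower at an unadjusted p under 0.05, Cd3g (-0.74 ± 0.29 SE) and Nkg7 (-0.56 ± 0.22). The list's median was -0.11, and 5 of the 19 had a positive log2 change. The highest were S100a9 (1.05 ± 0.72) and Cd3e (1.01 ± 0.61), both in a patch on transgenic replicate 4, and Lyz2 (0.66 ± 0.58). The mean level of the 19 relative to wild type was -0.30, -0.42 and 0.19 on transgenic replicates 1, 3 and 4, where wild-type arrays ran from -0.086 to 0.074. Only 11 of the 19 lay outside patches on every array. For these, a choice made after seeing the data, the means were -0.27, -0.54 and 0.14, and the wild-type range was -0.15 to 0.085. The value of 0.14 leaned on Lyz2, which read 10.29 on transgenic replicate 4 against 9.56, 7.73 and 9.08 in wild-type livers. The 5 leukocyte members had 0.20, -0.38 and 0.26 on the same arrays, and the wild-type range was -0.24 to 0.34. The part of leukocyte content in these values was not tested.

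The phosphatases of insulin and cytokine signalling gave no call. Ptpn2, which dephosphorylates JAK kinases and STAT factors, read 6.03, 4.82 and 5.51 in wild-type and 4.45, 5.18 and 5.17 in transgenic livers. It was above background on wild-type replicates 1 and 4 alone, and the groups overlapped. As a bound on the means it was at least 1.14-fold lower in transgenic livers (limma adjusted p = 0.736), and the bound leaned on wild-type replicate 1. The fitted log2 change was -0.52, with a 95% interval of -1.45 to 0.41 that includes 0, and it was -0.23 without wild-type replicate 1. Ptpn9, a phosphatase of secretory vesicles, read 8.21, 7.43 and 7.62 against 8.26, 7.74 and 8.01, a log2 change of 0.25 ± 0.28 (SE). It was 0.081 without wild-type replicate 2 and 0.47 without wild-type replicate 1.

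Of 13 tested receptors, kinases and STAT factors that such phosphatases act on, 1 was higher and 1 lower at an unadjusted p under 0.05, and 0 passed over all features. Prlr, the prolactin receptor, was under background in all 3 wild-type livers and was at least 1.16-fold higher on the means (adjusted p = 0.691). Its transgenic values were 5.53, 5.42 and 6.39 on replicates 1, 3 and 4. The first 2 lay under the lowest values above background on wild-type replicates 1 and 2, 5.71 and 5.65. That bound therefore rested on transgenic replicate 4 and does not hold without it. Stat5a had -0.56 ± 0.20 (SE), and Met, the receptor of hepatocyte growth factor, had 0.51 ± 0.22, both with an adjusted p of 0.691.

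Phosphatases with a PEST tail, which act on focal adhesion and cytoskeletal proteins, gave no call. Ptpn12, known for dephosphorylating the Src substrate Bcar1, read 8.98, 8.84 and 9.01 in wild-type and 9.06, 8.75 and 8.48 in transgenic livers. The log2 change was -0.18 ± 0.22 (SE), with an interval of -0.71 to 0.35. Its spot lay in a bright patch on wild-type replicate 4, where neighbouring spots read 2.15 above their usual level, and subtracting the local level turned the log2 change to 0.73. Ptpn18 read 7.05, 6.61 and 6.05 against 6.71, 6.28 and 6.30, with the transgenic values inside the wild-type range. Bcar1 itself had a log2 change of -0.52 ± 0.23 with groups that did not overlap (adjusted p = 0.691).

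Phosphatases with a FERM domain, which tie membrane proteins to the cytoskeleton, were all dim. Ptpn13, a large scaffold phosphatase with PDZ domains, had the smallest p of the members (log2 change 1.28 ± 0.24 SE, adjusted p = 0.691). Its signals were 4.79, 3.53 and 3.33 in wild-type and 17.3, 12.7 and 11.7 in transgenic livers. The transgenic arrays were all higher, but no array passed its background threshold, and 2 wild-type values were raised to the floor of 4.79 and 5.06 used there. The wild-type spread of Ptpn13 was therefore set by the floor, and no fold is given. Ptpn4 was above background on transgenic replicate 1 alone, with signals of 12.8, 18.4 and 11.6 against 41.0, 23.2 and 28.4. Ptpn21 was above it on wild-type replicate 4 alone, with a signal of 102 there against 17.0 to 37.2 on the other 5 arrays.

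**Figure D2:**
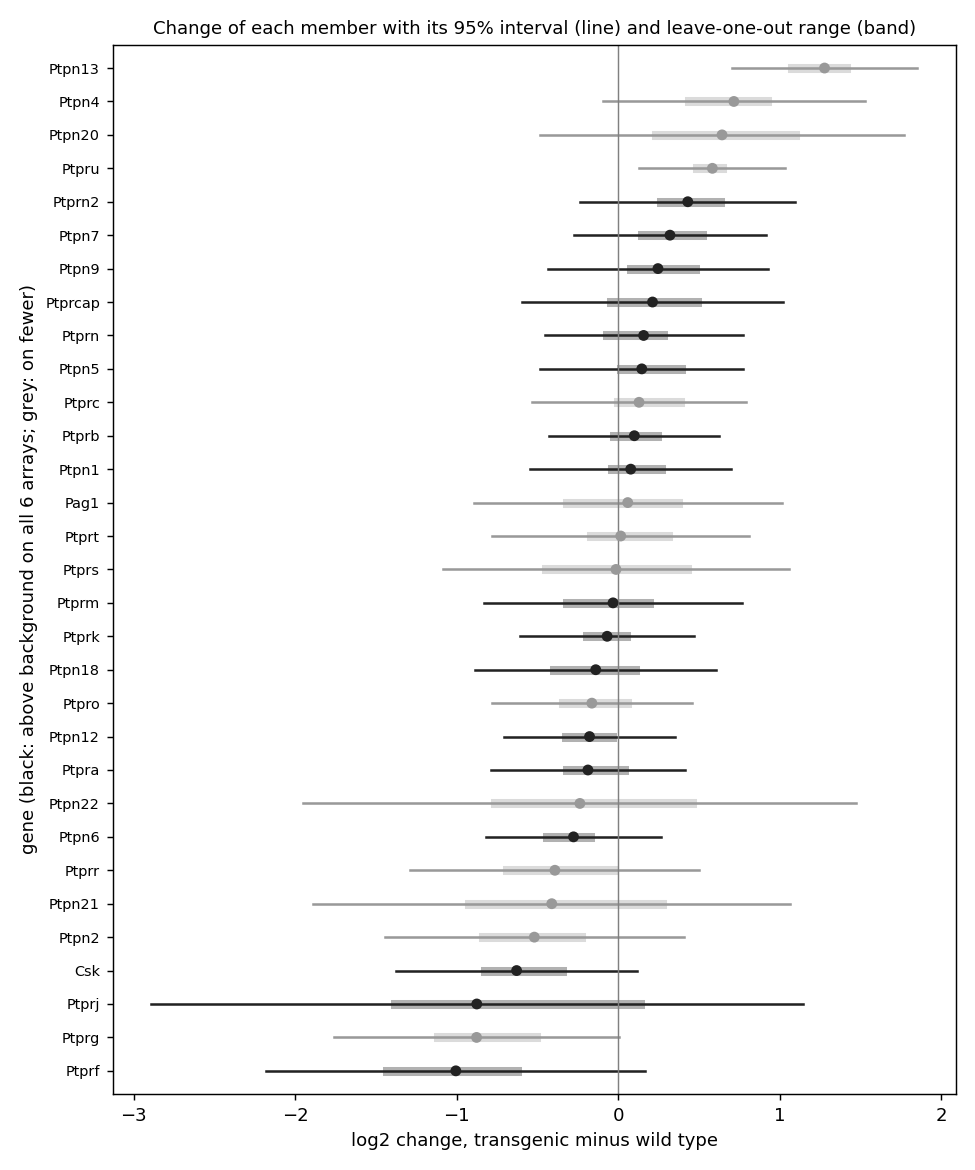
Log2 change of each member, transgenic minus wild type (horizontal axis), as a point with limma's 95% interval (thin line) and the range when each array is left out in turn (thick band). Black marks the 17 members above background on all 6 arrays, whose intervals all cross 0, and grey the other 14, among which Ptpn13 and Ptpru do not cross 0.

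The MAM receptors, which bind their like on neighbouring cells at cell contacts, included a member with separate groups. Ptpru read 5.34, 5.38 and 5.07 in wild-type and 5.89, 5.81 and 5.83 in transgenic livers. Its signals were 26.0, 37.0 and 34.8 against 63.9, 70.3 and 73.8, under the threshold on every wild-type array and over it on every transgenic array. After normalization the threshold lay higher on some wild-type arrays. Wild-type replicate 1, at 5.34, was under the 5.71 of its own array but over the 5.15 of transgenic replicate 1. The transgenic values were over 5.71 as well. The groups did not overlap, and Ptpru was at least 1.22-fold higher in transgenic livers (limma adjusted p = 0.691). The fitted log2 change was 0.58 ± 0.19 (SE), and leaving out single arrays gave 0.49 to 0.64. Its unadjusted p was not under 0.05 without wild-type replicate 4 (0.49) or without transgenic replicate 1 (0.56), nor with the replicate number as a block (0.66).

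The other MAM receptors did not differ beyond their spread. Ptprk, a receptor of epithelial contacts, read 9.33, 9.07 and 8.90 in wild-type and 9.28, 8.88 and 8.93 in transgenic livers, with a log2 change of -0.069 ± 0.22 (SE). Ptprm read 6.72, 7.32 and 7.19 against 6.92, 7.62 and 6.60, so the transgenic livers spanned the wild-type range. Ptprt was above background on transgenic replicate 1 alone, and its log2 change was 0.015 ± 0.33.

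The LAR receptors, adhesion phosphatases with immunoglobulin and fibronectin domains, differed in how firmly they were measured. Ptprf, the LAR gene, read 8.13, 8.80 and 7.19 in wild-type and 7.53, 6.44 and 7.13 in transgenic livers. Wild-type replicate 4 lay below transgenic replicate 1, so the groups overlapped. The log2 change was -1.01 ± 0.48 (SE), the lowest of the members, with a 95% interval of -2.18 to 0.17 (adjusted p = 0.691). Its highest array, wild-type replicate 2, had its spot in a bright patch. The log2 change was -0.63 without that array and -0.55 after local correction, and it was -1.43 without wild-type replicate 4, with an unadjusted p under 0.05. Ptprs was above background on wild-type replicate 1 and on all transgenic arrays, with a log2 change of -0.015 ± 0.44.

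Receptors with fibronectin repeats included the endothelial member. Ptprb, which encodes VE-PTP, the endothelial partner of the Tek receptor, had 2 probes with the same transcript accession. One probe read 11.12, 11.03 and 10.88 in wild-type and 10.83, 11.14 and 11.36 in transgenic livers, a log2 change of 0.099 ± 0.22 (SE). The other read 8.93, 8.95 and 8.34 against 8.56, 8.31 and 8.91, a log2 change of -0.15 ± 0.27, and for both probes the groups overlapped. For the first, median scaling in place of quantile normalization gave -0.18.

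Of the 10 tested endothelial markers, 0 passed at an unadjusted p under 0.05 in either direction, with a median of -0.17. Tek had -0.28 ± 0.27 (SE) and Tie1 -0.30 ± 0.21. Cdh5 had the lowest fitted value, -1.66 ± 0.98, but was above background on wild-type replicate 2 alone. Its signal was 267 there against 16.4 to 32.9 on the other arrays. The mean of the 10 markers relative to wild type was -0.25, -0.38 and -0.20 on transgenic replicates 1, 3 and 4, inside the wild-type range of -0.41 to 0.42. Of the 10, 1 had a positive log2 change. Lyve1 lay in a patch on 3 arrays. Without it, a choice made after seeing the data, the means were -0.32, -0.51 and -0.20, and the wild-type range was -0.31 to 0.24. Transgenic replicate 3 then lay below that range, and replicate 1 was level with its lower end (-0.316 against -0.314). Both sets of means include Cdh5 and so lean on its value on wild-type replicate 2. The part of endothelial content in the Ptprb values was not tested.

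Ptprj, the receptor CD148 of leukocytes and endothelium, was decided by a single array. Its signals were 61.4, 689 and 108 in wild-type and 142, 127 and 137 in transgenic livers. Wild-type replicate 2 stood alone, and the spot did not lie in a patch there. The log2 change was -0.88 ± 0.83 (SE), and without wild-type replicate 2 it was 0.13. Of the 10 endothelial markers, 4 were highest on the same array, which were Cdh5, Lyve1, Tek and Tie1, and the other 6 were not. Lyve1 lay in a patch there, and Tie1 read 8.23 there against 8.20 on wild-type replicate 1. Of the 19 leukocyte markers, 2 were highest on that array. The part of cell content in the Ptprj value was not tested.

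Ptprg, a receptor with a carbonic anhydrase-like domain, was the member whose groups separated downward. It read 6.02, 5.61 and 5.50 in wild-type and 5.09, 5.31 and 4.11 in transgenic livers. It was above background on wild-type replicates 1 and 4 and on no transgenic array, and was at least 1.36-fold lower there (limma adjusted p = 0.691). The fitted log2 change was -0.88 ± 0.36 (SE). The lowest value came from transgenic replicate 4, and without it the log2 change was -0.51. Without transgenic replicate 3 it was -1.12, with an unadjusted p under 0.05.

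**Figure D3:**
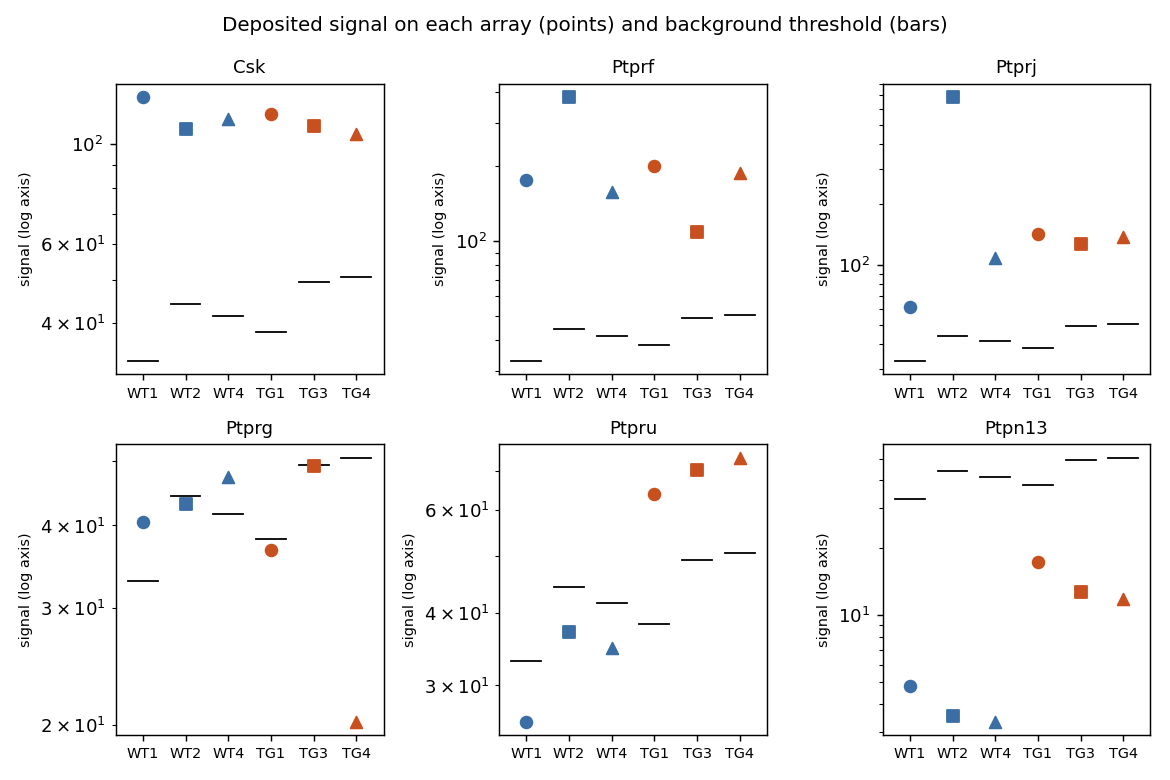
Deposited signal (vertical log axis) of 6 members on the wild-type arrays (WT1, WT2, WT4, blue) and the transgenic arrays (TG1, TG3, TG4, orange), with a black bar at each array's background threshold. Csk stays level, Ptprj is high on WT2 alone at 689, Ptpru crosses the threshold between the groups, and Ptpn13 lies under it on all 6 arrays.

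The secretory granule receptors Ptprn and Ptprn2, best known from endocrine cells and neurons, were above background on every array. Ptprn2 read 6.11, 6.38 and 6.84 in wild-type and 7.15, 6.88 and 6.59 in transgenic livers, with overlap at wild-type replicate 4. Its log2 change was 0.43 ± 0.27 (SE), with an interval of -0.23 to 1.09 (adjusted p = 0.714). Ptprn read 6.81, 6.64 and 6.75 against 6.67, 7.35 and 6.65, so only transgenic replicate 3 lay outside the wild-type range on the higher side. Of the 7 neural and endocrine markers, 0 passed at an unadjusted p under 0.05, and their mean relative to wild type was 0.17, 0.50 and -0.017 on transgenic replicates 1, 3 and 4, against -0.23 to 0.20 in wild-type. The value of 0.50 rests on Scg2, whose spot lay in a patch on transgenic replicate 3, and without that gene, a choice made after seeing the data, the mean there was -0.086. The part of nerve or endocrine RNA in the Ptprn values was not tested.

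The MAP kinase phosphatase Ptpn5, known from neurons, read 5.81, 5.77 and 6.51 in wild-type and 6.08, 6.20 and 6.24 in transgenic livers, all 3 of these inside the wild-type range. Ptprr, of the same subfamily, was above background on wild-type replicate 1 and transgenic replicate 1, with a log2 change of -0.39 ± 0.37 (SE). Its spot lay in a patch on wild-type replicate 1, and the log2 change was -0.031 without that array and -0.11 after local correction. Ptpn20 was above it on transgenic replicate 3 alone, with signals of 17.3, 14.4 and 19.9 against 16.9, 68.0 and 40.9. After normalization transgenic replicate 1 lay inside the wild-type range of Ptpn20. Its log2 change was 0.64 ± 0.46, and it was 0.23 without transgenic replicate 3.

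Related genes outside the family gave no call over all features. Of 30 tested tyrosine phosphatases of other families, such as the dual-specificity phosphatases, 1 was higher and 1 lower at an unadjusted p under 0.05, with a median log2 change of -0.046. The higher gene was Ptp4a1, a prenylated phosphatase induced in regenerating liver, which read 12.02, 12.13 and 11.95 in wild-type and 13.17, 12.67 and 12.37 in transgenic livers. Its groups did not overlap, and the log2 change was 0.71 ± 0.25 (SE, adjusted p = 0.691). The lower gene, Eya2, was above background on no array. Dusp8, a phosphatase of stress-activated MAP kinases, had 0.91 ± 0.38 with an unadjusted p over 0.05.

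Adaptors and docking partners gave 1 higher and 0 lower of 19 tested, with 5 positive values and a median of -0.16. The higher gene was Gab2, a docking protein that recruits SHP-2, which read 6.76, 6.66 and 7.60 against 7.79, 7.64 and 8.48. The groups did not overlap, and the log2 change was 0.96 ± 0.36 (SE, adjusted p = 0.691). Sirpa, which recruits SHP phosphatases in myeloid cells, had -1.06 ± 0.55 and lay in a patch on wild-type replicate 4. Among the 8 tested Src family kinases, Src and Blk were higher at an unadjusted p under 0.05 and 0 were lower, and Blk was above background on transgenic replicates 1 and 3 alone. Yes1 had -0.44 ± 0.22.

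Stellate cell and fibroblast markers (9 tested) and cholangiocyte markers (6 tested) had 0 members at an unadjusted p under 0.05, and their median log2 changes were -0.15 and 0.038. Hepatocyte markers had 0 of 7, with a median of 0.10.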

How the data were processed

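RNA from 6 livers was made into biotin-labelled cRNA and read on 1-colour arrays through streptavidin carrying a dye, per the labels' protocols. The authors deposited a background-subtracted linear intensity for each spot, per the file headers, and the same intensity divided by a per-array constant. Their value table repeats the scaled column. How the images were scanned and the background taken is not stated in the sources.

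Of 35587 spots, 620 bacterial controls were left out, leaving 34967 mouse probes. A floor was set on each array at the 1st percentile of its positive signals, and log2 values were quantile normalized. Accessions without versions were matched to RefSeq (GRCm38.p6), used for names and promoters, which named 14763 probes. The brightest probe stood for a gene, giving 34175 features. The background threshold of an array was 3 scaled median absolute deviations over the median of 570 control spots, those of the bright control left out. For a bound, each array of the dim group took its own value or, if higher, the lowest value above background there, and their mean was set against the bright group's.

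The test was limma (version 3.58.1, R 4.3.3; lmFit, eBayes, two-sided, Benjamini-Hochberg adjustment over all features), and an SE or 95% interval is limma's moderated one. Steps were tested on simulated data. A patch is where the median deviation of spots within 4 rows and columns passed 0.5. The number of arrays limits the precision. The labels number the mice separately and share only the numbers 1 and 4 between groups. The members, gene lists and thresholds were chosen with earlier results of these data known. Values on every array are given for Csk, Pag1, the members acting on the Src tail and the 10 members with the smallest p, and up to 3 genes with the smallest p were eligible from each related list. Some other members are given by array, and Ptprj, Ptpn12, Ptpn9, Ptpn18, Ptpn21, Ptpn5, Ptprcap, Ptprk, Ptprm and Ptprn were added to those after their values were seen.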

Additional observations from a re-analysis of the deposited data

How the results depend on the processing

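No member passed the adjusted threshold under any alternative run. The direction of 14 of the 31 held under every run that included the gene: Csk, Ptpn2, Ptpn4, Ptpn5, Ptpn6, Ptpn7, Ptpn9, Ptpn13, Ptpn20, Ptprf, Ptprg, Ptprn2, Ptprr and Ptpru. Not every run included all of these. Runs limited to probes above background on at least 3 or on all 6 arrays held 19 and 17 members, so dimmer members were not in them. The run outside patches left out Ptpn12, Ptprf and Ptprr. The number of features called was 0, 1 when every probe was tested separately (an Ang probe), and 0 to 1 when arrays were left out in turn. Members with an unadjusted p under 0.05 on the higher side were 2. They were 1 (Ptpru) with a floor at the 5th percentile, an offset of 50 or probes above background on at least 3 arrays, 0 among probes above it on all 6, and 1 to 3 with arrays left out. Ptpru was not among them without wild-type replicate 4 or transgenic replicate 1, and Ptpn13 was with every array left out. With the replicate block the 2 were Ptpn13 and Ptpn4. On the lower side the count of 0 became 1 (Ptprg) with the 5th percentile floor, outside patches and with the replicate block, and 0 to 2 with arrays left out, the 2 being Csk and Ptprf without wild-type replicate 4. The median log2 change of the members ran from -0.15 to 0.12 with arrays left out, the latter without wild-type replicate 1.

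Directions that turned, none of them of a called value, are given here, and the cause was not tested. Median scaling gave Pag1 -0.29, Ptprb -0.18, Ptprt -0.034. The authors' value table gave Pag1 -0.29, Ptprb -0.18, Ptprt -0.033. A floor at the 5th percentile gave Pag1 -0.092. An offset of 50 in place of the floor gave Ptprt -0.0027. Array weights gave Pag1 -0.16. Local correction of patches gave Ptpn1 -0.049, Ptpn12 0.73, Ptpn18 0.19. The mean of a gene's probes gave Ptprb -0.023. The other probe gave Ptprb -0.15. The replicate block gave Ptpn22 0.046, Ptprj 0.19, Ptprn -0.12, Ptpro 0.029, Ptprs 0.032. Leaving out arrays gave -0.32 to 0.37 for Pag1, -0.32 to 0.034 for Ptpra, -0.0017 to 0.38 for Ptprc, -0.042 to 0.26 for Ptpn1, -0.027 to 0.24 for Ptprb, -0.40 to 0.10 for Ptpn18, -0.92 to 0.27 for Ptpn21, -0.76 to 0.46 for Ptpn22, -0.047 to 0.49 for Ptprcap, -1.38 to 0.13 for Ptprj, -0.20 to 0.047 for Ptprk, -0.32 to 0.19 for Ptprm, -0.072 to 0.27 for Ptprn, -0.34 to 0.057 for Ptpro, -0.45 to 0.43 for Ptprs, -0.17 to 0.31 for Ptprt. Among 560 member values under alternatives 45 turned. Replicate numbers 1 and 4 do not pair mice by any label, and same-numbered arrays had deviations that correlated at 0.060 and 0.058. Signal over background limits the 14 members that were not above it on all arrays, and 3 arrays a group limit the rest.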
